A study of Homo sapiens with 4 samples.

Results

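The amino acid transporter families SLC1A, SLC3A, SLC7A, SLC36A, SLC38A and SLC43A were examined in Huh7, a line grown from a human liver tumour (hepatocellular carcinoma). Their members were taken as all gene symbols of the deposited table that start with 1 of these 6 family names followed by a number, which gave 40 of 18806 genes. The symbol rule also brought in SLC7A6OS, which is named for its place on the strand opposite SLC7A6 and does not encode a transporter. Cells came from a single clone that stably carried Cas9 and were infected with lentivirus for a non-targeting guide (sgNS, 2 libraries) or for guide RNA against METTL16 (sgMETTL16, called METTL16 KO here, 2 libraries), so that Cas9, the lentiviral vector and selection with hygromycin B were shared by both groups. The labels call the genotype of the second group a knockdown. They do not say whether the numbers 1 and 2 mark separate cultures or separate guides. The methods of the study call the 2 libraries of a group biological replicates without saying how they were separated. The p-values below measure only the spread between these libraries. In limma, each gene's variance is drawn toward that of genes at a similar level. The standard errors (SE) and p-values of a gene thus do not rest on its own libraries' values alone.

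Amino acids cross membranes only with the help of carriers, and the families divide this work by charge and by coupled ion. SLC1A proteins carry acidic amino acids or exchange small neutral ones with sodium, and SLC38A proteins take up or release glutamine and other neutral amino acids with sodium. SLC7A proteins either carry cationic amino acids alone or, as light chains, work as a dimer with a glycoprotein heavy chain from the SLC3A family. Some SLC36A proteins couple amino acids to protons, often at the lysosome, and some SLC43A proteins let large neutral amino acids pass without an ion. In hepatocytes these carriers feed protein synthesis, the urea cycle and glutathione synthesis.

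Values are TPM (transcripts in each 1000000), a share of each library's total that is corrected for gene length, so that levels of different genes can be compared. They keep no read counts, and the depth behind a value is therefore unknown. Between 11723 and 12074 genes were listed at 1 TPM or more in a library. METTL16 itself was listed at 26.3 and 25.1 TPM in sgNS versus 17.6 and 18.8 TPM upon METTL16 KO, with a log2 fold change of -0.50 ± 0.062 (SE, n = 2 libraries per group, adjusted p = 2.4e-05, limma). Guide-directed edits can leave a transcript in place, so this level is no measure of protein. The study presents Western blots of METTL16 KO efficiency in Huh7, without saying whether they were made from the cultures of these libraries. Of the markers of the labelled cell type, ALB was at 7437 to 10079 TPM, and all 10 hepatocyte and hepatoma markers were above 1 TPM. Their summed level was 18671 and 18753 TPM in sgNS against 32424 and 31971 TPM in METTL16 KO. Most of this difference was AFP, at 1737 and 1793 against 10386.5 and 10197.3 TPM. The markers did not all rise: TF fell from 2105 and 2039 to 1559 and 1523 TPM, and APOB from 1157 and 1170 to 1067 and 1005 TPM. Of the other cell types looked for, the 3 endothelial markers summed to between 2.73 and 5.15 TPM and the 5 fibroblast and stellate markers to between 2.69 and 3.59 TPM, while VWF and CDH5 were at or near 0. Among the 4 leukocyte markers PTPRC and CD3E stayed below 1 TPM in every library and CD14 below 2 TPM, but LYZ was listed at 1510 and 1553 TPM in sgNS versus 909 and 924 TPM in METTL16 KO. The part of these shifts in the transporter results was not tested.

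The transporter genes moved in both directions upon METTL16 KO. Their summed mean TPM as deposited was 1.08 times that of sgNS (1.07 times without SLC7A6OS), a difference that depends on the scaling. Among the 26 members abundant enough to be tested, the largest rises were in SLC1A4, SLC7A7 and SLC43A3, with ratios of the group means between 2.28 and 2.60. The scarce SLC1A3 and SLC1A1, which were not tested, had ratios of 6.42 and 3.30. The lowest log2 fold change was that of SLC1A7, a gene near 1 TPM, followed by that of SLC7A11, the cystine carrier. Genes were tested with limma on log2(TPM + 0.1) if they averaged 1 TPM or more over the 4 libraries, which 26 of the 40 members met, and p-values were adjusted over all 11971 genes tested. Fold changes on this scale understate the change of low genes. At an adjusted p under 0.05, 11 members were higher and 8 were lower. These calls were common in the whole table, where 75.7% of the genes passed, 50.1% as higher and 25.6% as lower, so that a call by itself does not set a member apart. The groups did not overlap in 23 of the 26 members, against 87.4% of all genes tested. With the stricter thresholds, a p under 0.01 before adjustment and a log2 fold change of 1 or more in size, 3 members were higher (SLC1A4, SLC7A7, SLC43A3) and 1 was lower (SLC1A7), where 7.69% of all genes were higher and 3.75% lower. SLC1A7 reached the minimum level only through the sgNS libraries, in which it is high, so this lower call does not count as support. The median log2 fold change was 0.074 for the members tested and 0.16 for all genes tested, and the median absolute log2 fold change was 0.53 and 0.36. This absolute median was 0.49 for the members without SLC7A6OS. It was 0.43 for other SLC genes and 0.45 for amino acid transporters outside the 6 families, so most of the excess over all genes was not particular to the members. In bulk RNA, a smaller share of expressing cells and less RNA per cell cannot be told apart.

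A TPM value depends on all other genes in the library, and dividing each library by its median ratio to the geometric mean brought the median of all genes from 0.16 to -0.034. After this scaling 10 members were higher and 12 lower. Of the 19 members called as deposited, 18 kept their direction and their call both with this scaling and with quantile normalization, 10 of them higher and 8 lower. The exception was SLC3A2. For all genes tested, 77.1% of the calls were kept in the same way. The sign turned with median-ratio scaling for SLC3A2, SLC36A1, SLC38A2, SLC38A9 and SLC43A1, all of them within 0.14 of 0 as deposited.

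**Figure D1:**
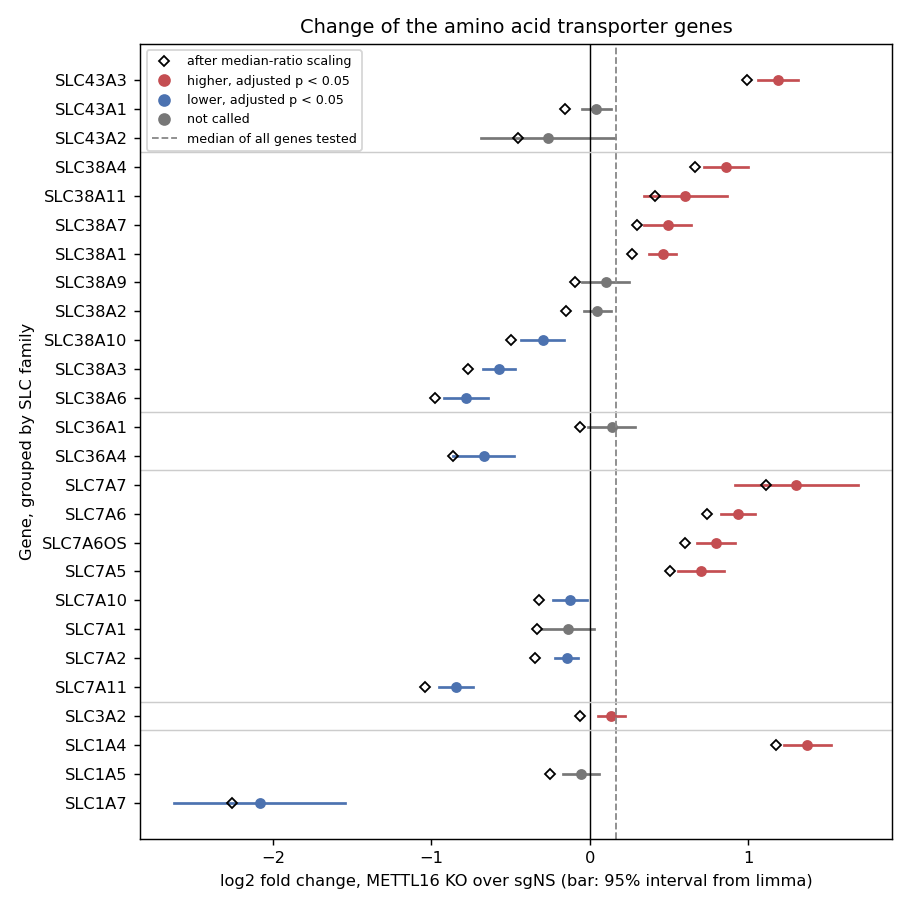
Log2 fold change of METTL16 KO over sgNS (x axis) for the 26 transporter genes tested (y axis, grouped by SLC family), as points with 95% intervals from limma, coloured by their call at an adjusted p under 0.05. Diamonds show the value after median-ratio scaling, which lies about 0.2 lower for every gene, and the dashed line shows the median of all genes tested, 0.16. SLC1A4, SLC7A7 and SLC43A3 lie farthest to the right and SLC1A7 farthest to the left.

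In the SLC1A family the neutral exchanger SLC1A4 (ASCT1, which exchanges alanine, serine, cysteine and threonine) rose, while the far more abundant SLC1A5 (ASCT2, a glutamine exchanger) did not pass the test. SLC1A4, which lies on the plus strand of chromosome 2 from 64988477 to 65023865 (GRCh38, GENCODE release 44), was listed at 10.2 and 11.2 TPM in sgNS versus 27.7 and 27.8 TPM upon METTL16 KO. It thus had a log2 fold change of 1.37 ± 0.067 (SE, adjusted p = 1.8e-08, limma). Both METTL16 KO libraries lay far above both sgNS libraries and close to each other. SLC1A5, the most abundant member of the family, was listed at 104.8 and 93.7 TPM in sgNS versus 95.03 and 95.62 TPM in METTL16 KO, and the groups overlapped (log2 fold change -0.055, 95% interval -0.17 to 0.060, adjusted p = 0.35, limma). With median-ratio scaling it was at -0.25 and passed (adjusted p = 0.0012, limma). The ratio of SLC1A4 to SLC1A5, which no scaling by a single factor can change, was 0.0975 and 0.119 in sgNS and 0.292 and 0.291 in METTL16 KO. The glutamate carriers of the family were low. SLC1A7 (EAAT5, best known from the retina) fell from 2.62 and 1.97 TPM to 0.44 and 0.48 TPM, a log2 fold change of -2.08 ± 0.24 (SE, adjusted p = 1.5e-05, limma). Its level in METTL16 KO was below 1 TPM, so that it entered the test only through sgNS. Without sgNS replicate 1 its mean dropped under the minimum and it was not tested, and with a pseudocount of 1 its log2 fold change was -1.17. SLC1A1 (EAAT3) was listed at 0.24 and 0.23 against 0.78 and 0.77 TPM and SLC1A3 (EAAT1) at 0.22 and 0.14 against 1.07 and 1.24 TPM. Both were below the minimum for the test, and without a minimum they passed in limma (adjusted p = 0.0027 and 0.0016). SLC1A2 (EAAT2) had 0 TPM throughout sgNS and 0.04 TPM in each METTL16 KO library. SLC1A6 was not analysed here.

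Many genes of amino acid supply carry a binding element for ATF4 and C/EBP factors, the transcription factors of the response to amino acid shortage, with the letters TGATGCAA. These letters were searched on both strands in RefSeq windows (GRCh38.p14) from 250 bases before to 50 bases after each annotated start. A window was given for 31 of the 40 members, 52 windows in all, and 3 of the 52 (5.77%) held the letters, compared with 304 of 35116 windows of all genes (0.866%). The 3 windows belong to SLC1A4, SLC1A3 and SLC1A5 and are shown because all 3 genes are of the same family, with the letters of the element in capitals. A match is a description of the letters and not of binding, and nothing was drawn from its absence in other windows. Members without a window, SLC7A11 among them, were not searched. In SLC1A4 the letters are on the strand opposite the gene, and the first of them lies 7 bases before the annotated start at position 64989399. This stretch is inside the gene, with 1 of its 100 bases in an annotated exon and the rest intronic. In SLC1A3 they begin 220 bases before the start at 36596588, outside the gene. In SLC1A5 they begin 97 bases before a start at 46784814 that is inside the gene, and 2 of the 100 bases shown are in an annotated exon, the rest intronic. Each stretch is given 5′ to 3′ on the strand of its gene.
SLC1A4, chr2:64989300-64989399, plus strand: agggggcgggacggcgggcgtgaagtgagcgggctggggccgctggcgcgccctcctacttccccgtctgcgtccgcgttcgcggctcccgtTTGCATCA
SLC1A3, chr5:36596338-36596437, plus strand: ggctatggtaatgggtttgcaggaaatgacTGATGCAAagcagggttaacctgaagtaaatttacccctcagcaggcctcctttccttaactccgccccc
SLC1A5, chr19:46784904-46785003, minus strand: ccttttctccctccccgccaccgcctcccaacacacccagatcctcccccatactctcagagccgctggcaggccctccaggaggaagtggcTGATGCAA
The 3 genes differed in their values upon METTL16 KO, as given above: SLC1A4 rose, SLC1A3 was above sgNS in both libraries at a level near 1 TPM, and SLC1A5 overlapped between the groups.

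SLC3A2 encodes the CD98 heavy chain, which brings its light chains to the cell surface. It stood at 153.0 and 144.2 TPM in sgNS versus 164.6 and 161.9 TPM in METTL16 KO, and the METTL16 KO libraries lay just above the others. Its log2 fold change of 0.14 ± 0.040 (SE, adjusted p = 0.0089, limma) is close to the median of all genes, and it was -0.061 after median-ratio scaling (adjusted p = 0.18, limma). The call was also lost without METTL16 KO replicate 1 (adjusted p = 0.095, limma), without METTL16 KO replicate 2 (adjusted p = 0.056, limma) and in limma without a trend (adjusted p = 0.071). The other heavy chain, SLC3A1 (rBAT), was listed between 0.53 and 0.96 TPM in all libraries with overlapping groups.

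The light chains of CD98 changed against each other. SLC7A5 (LAT1, which imports leucine and other large neutral amino acids in exchange for glutamine), SLC7A6 (y+LAT2) and SLC7A7 (y+LAT1), the latter pair exchangers of cationic for neutral amino acids, rose. SLC7A11 (xCT, which imports cystine in exchange for glutamate) and SLC7A10 (Asc-1, a carrier of small neutral amino acids) fell. SLC7A5, on the minus strand of chromosome 16 from 87830023 to 87869507, was listed at 60.1 and 51.4 TPM in sgNS versus 92.1 and 88.7 TPM upon METTL16 KO, with a log2 fold change of 0.70 ± 0.065 (SE, adjusted p = 2.5e-06, limma). SLC7A6, on the plus strand of the same chromosome from 68264516 to 68301823, went from 35.8 and 33.6 TPM to 66.8 and 66.1 TPM (log2 fold change 0.94, standard error 0.049, adjusted p = 3.2e-08, limma). SLC7A6OS on the opposite strand overlaps it by 17321 bases and was listed at 23.2 and 24.6 against 41.9 and 41.2 TPM (log2 fold change 0.80, adjusted p = 2.2e-07, limma). The library kit keeps the strand, but it is not given in the sources used here whether reads were counted by strand, so that the rises of SLC7A6 and SLC7A6OS cannot be told apart with certainty. SLC7A7, on the minus strand of chromosome 14 from 22773222 to 22829820, was scarce and was listed at 2.12 and 1.45 against 4.50 and 4.46 TPM (log2 fold change 1.30, standard error 0.18, adjusted p = 4.8e-05, limma).

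SLC7A11, on the minus strand of chromosome 4 from 138164097 to 138242349, was listed at 55.7 and 57.0 TPM in sgNS versus 31.7 and 31.0 TPM upon METTL16 KO. It thus had a log2 fold change of -0.84 ± 0.048 (SE, adjusted p = 5.6e-08, limma), and over the alternatives tried it ran from -1.04 to -0.83. The libraries of each group differed by less than 1.5 TPM, and the groups lay more than 20 TPM apart. SLC7A10 was listed at 62.9 and 58.8 TPM in sgNS versus 56.5 and 55.1 TPM in METTL16 KO, a small fall (log2 fold change -0.12, adjusted p = 0.037, limma). This call was lost without sgNS replicate 1 (adjusted p = 0.16, limma), without METTL16 KO replicate 1 (0.11) or replicate 2 (0.21), in limma without a trend (0.10) and with no minimum level (0.068). SLC7A8 (LAT2) was near 0 in all libraries, at 0.01 and 0.02 against 0.07 and 0.04 TPM.

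The make-up of the light chain transcripts shifted accordingly. SLC7A11 made up 25.7% and 28.2% of the summed TPM of the 6 light chains in sgNS and 12.6% in both METTL16 KO libraries. SLC7A5 made up 27.7% and 25.4% in sgNS and 36.6% and 36.2% in METTL16 KO, and SLC7A6 16.5% and 16.6% against 26.5% and 26.9%. Thus SLC7A5 was at 1.08 and 0.901 times the level of SLC7A11 in sgNS and at 2.90 and 2.86 times its level in METTL16 KO. The summed light chains rose less, from 217 and 202 TPM to 252 and 245 TPM, and stood at 1.42 and 1.40 times the level of SLC3A2 in sgNS and at 1.53 and 1.52 times in METTL16 KO. These shares and ratios do not depend on a scaling factor of the library. With 2 libraries against 2 an exact permutation test of a single value cannot give a p under 0.33, and none was run.

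**Figure D2:**
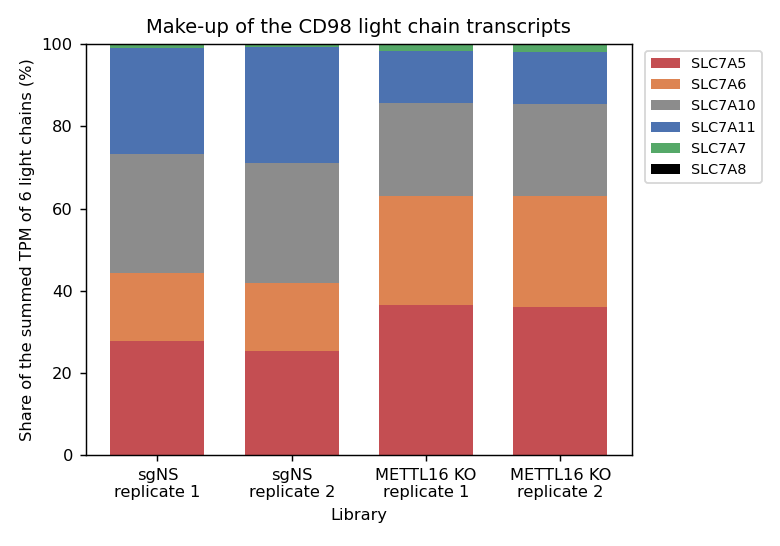
Share of each of the 6 light chain genes in their summed TPM (y axis, %) in each of the 4 libraries (x axis), as stacked bars. The SLC7A11 segment shrinks from 25.7% and 28.2% in sgNS to 12.6% in METTL16 KO, while the segments of SLC7A5 and SLC7A6 grow, and SLC7A8 is too low to be seen.

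The cationic amino acid carriers of the SLC7A family showed small differences. SLC7A2 (CAT2, a carrier of arginine, lysine and ornithine that is abundant in liver) had the highest mean of the SLC7A family and the second highest of all members. It stood at 246 and 249 TPM in sgNS versus 226 and 221 TPM upon METTL16 KO, with a log2 fold change of -0.15 ± 0.033 (SE, adjusted p = 0.0018, limma), and at -0.34 after median-ratio scaling. SLC7A1 (CAT1), at 16.09 and 14.90 against 14.68 and 13.47 TPM, did not pass (log2 fold change -0.14, 95% interval -0.30 to 0.026, adjusted p = 0.11, limma), but passed after median-ratio scaling at -0.33 (adjusted p = 0.0019, limma). SLC7A3 (CAT3) was listed at 0 in all 4 libraries, SLC7A14 at up to 0.02 TPM and SLC7A4 at between 0.19 and 0.68 TPM with overlapping groups. SLC7A9, the partner of rBAT, did not exceed 0.21 TPM, and SLC7A13 was listed at 0 throughout.

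Of the 9 SLC38A genes tested, 4 rose, 3 fell and 2 did not pass, where 75.7% of all genes passed, 50.1% as higher and 25.6% as lower. SLC38A2 (SNAT2, which concentrates glutamine and other neutral amino acids in the cell) had the highest mean of all members. It stood at 234 and 247 TPM in sgNS versus 255 and 243 TPM in METTL16 KO, with overlapping groups (log2 fold change 0.047, 95% interval -0.038 to 0.13, adjusted p = 0.29, limma), and it was at -0.15 and passed after median-ratio scaling (adjusted p = 0.0066, limma). SLC38A1 (SNAT1), a glutamine importer of the same type, rose from 113.8 and 116.4 TPM to 161.2 and 155.6 TPM (log2 fold change 0.46, standard error 0.038, adjusted p = 9.9e-07, limma). The carriers that are characteristic of liver moved in opposite directions. SLC38A3 (SNAT3), which takes up or releases glutamine in hepatocytes, fell from 54.95 and 54.86 TPM to 36.93 and 36.91 TPM (log2 fold change -0.57, standard error 0.046, adjusted p = 8.3e-07, limma). SLC38A4 (SNAT4), a carrier of neutral amino acids such as alanine, rose from 15.5 and 16.9 TPM to 29.6 and 29.5 TPM (log2 fold change 0.86, standard error 0.063, adjusted p = 3.9e-07, limma). The ratio of SLC38A4 to SLC38A3 was 0.282 and 0.309 in sgNS and 0.80 in both METTL16 KO libraries. SLC38A1, SLC38A2 and SLC38A4 are neighbours on the minus strand of chromosome 12, with gaps of 88.2 kb between SLC38A1 and SLC38A2 and 392 kb between SLC38A2 and SLC38A4, and the middle gene was the 1 that did not pass.

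The less studied SLC38A genes followed no common direction either. SLC38A6, on the plus strand of chromosome 14 from 60981114 to 61114316, fell from 24.3 and 25.4 TPM to 14.7 and 14.2 TPM (log2 fold change -0.78, standard error 0.062, adjusted p = 7.4e-07, limma). SLC38A10 was listed at 48.25 and 42.97 against 37.6 and 36.4 TPM and fell by 0.30 on the log2 scale (adjusted p = 9.3e-04, limma). SLC38A11, at 3.58 and 4.24 against 6.21 and 5.74 TPM, rose by 0.60 on that scale (adjusted p = 7.7e-04, limma). SLC38A5 (SNAT5) was listed at 1.35 and 1.10 against 0.73 and 0.72 TPM and was just under the minimum for the test, and SLC38A8 was at 0 in 3 libraries.

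**Figure D3:**
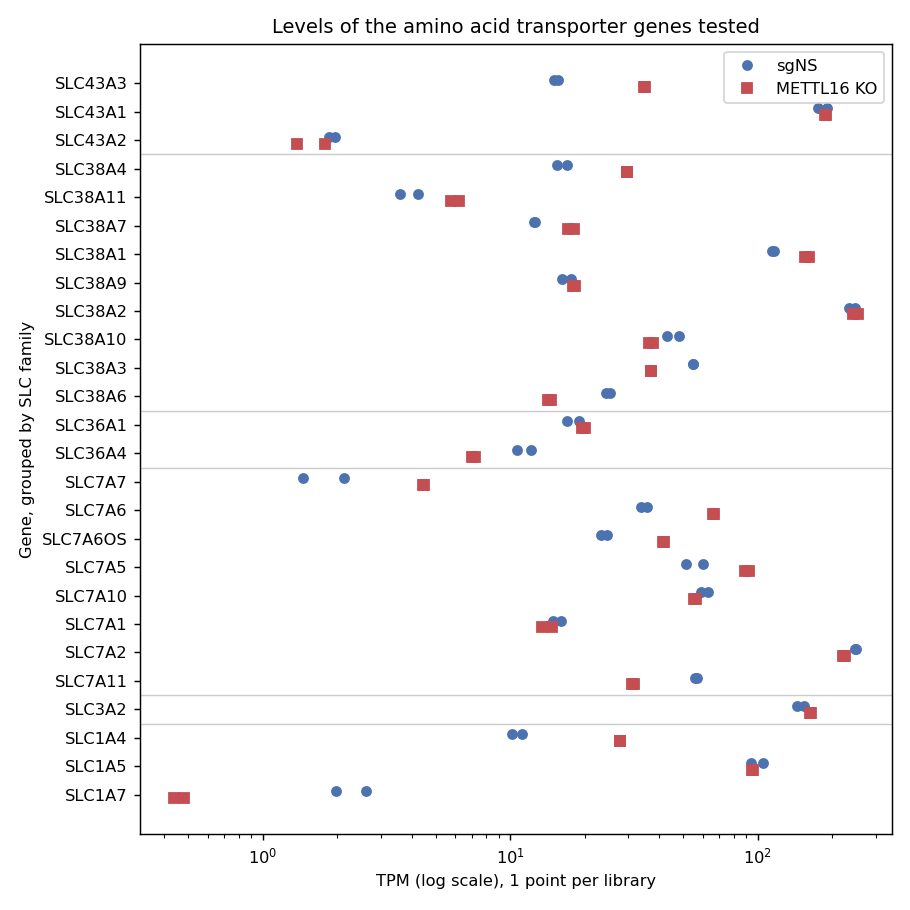
TPM on a log axis (x axis) of the 26 transporter genes tested (y axis, grouped by SLC family), with 1 point per library (circles: 2 sgNS libraries, squares: 2 METTL16 KO libraries). SLC38A2, SLC7A2 and SLC43A1 are the most abundant, at 175 to 255 TPM, and circles and squares are well apart for SLC1A4, SLC43A3, SLC7A11 and SLC38A6.

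Of 4 carriers of the lysosome, where amino acids from protein breakdown are released and sensed, or of the SLC36A family, 1 rose, 1 fell and 2 did not pass, against 75.7% of all genes that passed. SLC38A7 (SNAT7, which exports glutamine and asparagine from lysosomes) was listed at 12.4 and 12.6 TPM in sgNS versus 17.2 and 18.1 TPM in METTL16 KO, a rise of 0.49 on the log2 scale (standard error 0.067, adjusted p = 4.9e-05, limma). SLC38A9, the lysosomal arginine sensor upstream of the kinase complex mTORC1, was listed at 16.16 and 17.66 against 17.9 and 18.3 TPM. The METTL16 KO libraries lay above by less than the distance between the sgNS libraries, and it did not pass (log2 fold change 0.10, 95% interval -0.049 to 0.25, adjusted p = 0.20, limma). SLC36A1 (PAT1), the proton-coupled carrier of lysosomes and the most abundant of its family, was listed at 18.9 and 17.0 against 19.5 and 20.0 TPM (log2 fold change 0.14, 95% interval -0.014 to 0.29, adjusted p = 0.090, limma). After median-ratio scaling SLC38A9 and SLC36A1 were at -0.096 and -0.059. Its relative SLC36A4 (PAT4), on the minus strand of chromosome 11 from 93144174 to 93197991, fell from 10.7 and 12.1 TPM to 6.99 and 7.22 TPM (log2 fold change -0.67, standard error 0.088, adjusted p = 3.8e-05, limma). SLC36A2 was listed at 0 in all libraries and SLC36A3 in 3 of the 4.

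In the SLC43A family 1 of the 3 genes tested rose and 2 did not pass, where 75.7% of all genes passed. SLC43A1 (LAT3, a carrier of large neutral amino acids that is abundant in liver) was listed at 189.6 and 175.3 TPM in sgNS versus 187.0 and 187.8 TPM in METTL16 KO, and the groups overlapped (log2 fold change 0.040, 95% interval -0.052 to 0.13, adjusted p = 0.40, limma). After median-ratio scaling it was at -0.16 and passed (adjusted p = 0.0054, limma). SLC43A3 encodes a carrier of purine nucleobases rather than of amino acids. It lies on the minus strand of chromosome 11 from 57406954 to 57427580 and rose from 15.6 and 15.0 TPM to 35.1 and 34.6 TPM, a log2 fold change of 1.18 ± 0.057 (SE, adjusted p = 1.6e-08, limma), which was 0.99 after median-ratio scaling. Its ratio to SLC43A1 was 0.0821 and 0.0854 in sgNS and 0.188 and 0.184 in METTL16 KO. SLC43A2 (LAT4), at 1.86 and 1.96 against 1.38 and 1.79 TPM, did not pass (adjusted p = 0.23, limma).

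Summed over their members, the families kept nearly the same proportions in both groups. All 40 genes together were at 1536 and 1504 TPM in sgNS versus 1651 and 1621 TPM in METTL16 KO, which is 0.15% and 0.16% of the library. The SLC38A family made up between 34.2% and 35.9% of that sum in the 4 libraries and the SLC7A family between 32.2% and 32.7%. As deposited, SLC36A was the only family whose sum was lower in METTL16 KO, at 29.6 and 29.1 against 26.5 and 27.2 TPM. Median-ratio scaling lowers the METTL16 KO values relative to sgNS, so the direction of sums this close to sgNS depends on the scaling. The sums were not taken after scaling. The ratios of the mean sums ran from 0.92 for SLC36A to 1.12 for SLC43A. The SLC43A sum includes SLC43A3, a carrier of purine nucleobases, whose mean went from 15.3 TPM in sgNS to 34.9 TPM in METTL16 KO. The SLC7A sum includes SLC7A6OS, which does not encode a transporter. The ratio for SLC7A was 1.06 with SLC7A6OS and 1.03 without it, and for all members 1.08 and 1.07. Of the 14 members not tested, 3 were at 0 in every library (SLC7A3, SLC7A13, SLC36A2), and the other 11 had means under 1 TPM and are described above.

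**Figure D4:**
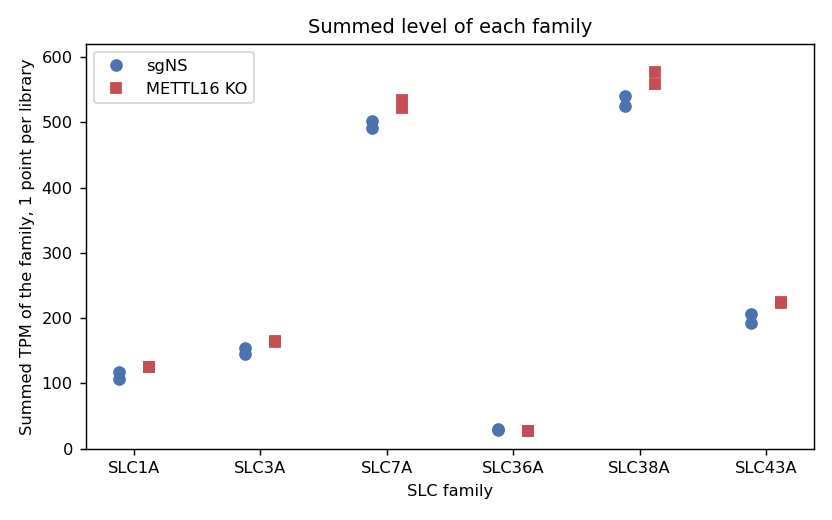
Summed TPM of the members of each SLC family (y axis, starting at 0), with 1 point per library (circles: sgNS, squares: METTL16 KO). The sums include SLC7A6OS and SLC43A3, which do not encode amino acid carriers. The SLC38A and SLC7A families each sum to between 491 and 577 TPM. In the values as deposited, without median-ratio scaling, the METTL16 KO points are slightly above sgNS in every family but SLC36A.

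Other amino acid transporters outside the 6 families also moved both ways, with 85.0% of those tested called against 75.7% of all genes. Of 20 tested, 10 rose and 7 fell, and the median log2 fold change was 0.039. After median-ratio scaling 8 were higher and 9 lower. These 9 include SLC25A12 (-1.27), which is not among the 20, since it reached the minimum level only with that scaling and is higher in sgNS. SLC15A3, a lysosomal carrier of histidine and small peptides, was listed at 0.41 and 0.11 TPM in sgNS versus 4.41 and 4.62 TPM in METTL16 KO (adjusted p = 2.5e-06, limma), so that it entered the test only through METTL16 KO. SFXN3, a mitochondrial serine carrier, rose from 8.56 and 7.87 to 23.3 and 21.2 TPM, and SLC16A10 (TAT1), which carries aromatic amino acids, from 15.1 in both libraries to 28.7 in both. SLC6A9 (GLYT1), a glycine importer, fell from 15.5 and 14.3 to 7.90 and 8.14 TPM and SLC25A13 (citrin), the mitochondrial aspartate-glutamate carrier of liver, from 73.9 and 74.8 to 48.4 and 49.8 TPM. The adjusted p-values from limma of these 4 genes were between 4.1e-08 and 1.5e-06. SLC25A18 fell by 0.53 on the log2 scale (adjusted p = 0.0099, limma), a call that was lost with no minimum level (adjusted p = 0.060, limma).

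Imported amino acids are sensed by mTORC1 through the Rag GTPases and their partners at the lysosome. Of the 35 genes of this pathway, all tested, 20 rose and 7 fell, and the median log2 fold change was 0.23 against 0.16 for all genes. The share called, 77.1%, is near the 75.7% of all genes tested (50.1% higher and 25.6% lower), and after median-ratio scaling 13 were higher and 11 lower. The largest change was in LAMTOR2, a subunit of the Ragulator that anchors the Rags, which rose from 66.1 and 60.6 TPM to 182 and 191 TPM (log2 fold change 1.56, standard error 0.049, adjusted p = 5.9e-10, limma), while LAMTOR4 of the same complex fell from 157 and 149 to 96.9 and 99.7 TPM (adjusted p = 1.3e-07, limma). RRAGC rose from 15.4 and 17.0 to 28.3 and 26.5 TPM and WDR24, a subunit of the GATOR2 complex, from 14.4 and 13.1 to 23.6 and 23.1 TPM. RRAGB fell by 0.51 and FNIP2, a partner of folliculin, fell by 0.57 on the log2 scale (adjusted p = 7.2e-04 and 8.4e-07, limma).

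The kinase GCN2 and the factor ATF4 raise the transcription of several transporters when amino acids run short. Of the 17 genes listed for this response, 8 rose, 4 fell and 5 did not pass, with a median of 0.068 on the log2 scale against 0.16 for all genes. The share called was 70.6% against 75.7% of all genes, and after median-ratio scaling 6 were higher and 8 lower. DDIT3 (CHOP) rose from 30.7 and 32.1 to 72.7 and 77.8 TPM, and PPP1R15A and CHAC1 rose by 0.93 and 0.75 on the log2 scale, while NUPR1, PHGDH and TRIB3 fell by 0.92, fell by 0.48 and fell by 0.21. Of the genes that use the cystine brought in by xCT for glutathione, or turn glutathione over, 5 of 9 tested rose and 2 fell, with a median of 0.34 on the log2 scale against 0.16 for all genes. The share called, 77.8%, is near the 75.7% of all genes, and after median-ratio scaling 4 were higher and 4 lower. GCLC, the catalytic subunit of the first step of glutathione synthesis, rose from 22.7 in both sgNS libraries to 32.5 and 31.7 TPM (log2 fold change 0.50, adjusted p = 8.3e-06, limma), and CHAC1 and GGT7 rose by 0.75 and 0.43 on the log2 scale. OPLAH, which returns oxoproline to glutamate, fell from 5.38 and 4.14 to 1.83 and 2.00 TPM (log2 fold change -1.26, adjusted p = 2.4e-05, limma), and GGT1 fell by 0.55.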

How the data were processed

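Upstream, the authors used Cutadapt for trimming, STAR for alignment (GRCh38) and RSEM for gene levels (versions and annotation are not given in the sources used here). Although RPKM is the unit named in the methods, each deposited column sums to 1000000, so the deposited values were treated as TPM. The table has 2 decimals and keeps no depth. Columns were matched to the 4 samples by name, and none was left over. The groups were compared in R 4.3.3 with limma 3.58.1 (lmFit, eBayes with trend, two-sided, no block) on log2(TPM + 0.1) for 11971 genes whose mean reached 1 TPM, with Benjamini-Hochberg adjustment over these. Code was tested on simulated data. Alternatives were pseudocounts of 1 and 0.01, no minimum or a minimum mean of 5 TPM, median-ratio and quantile scaling, a replicate block, no trend and leaving out each library. Leaving SLC7A6OS out of the members was added after seeing the data. Members, lists and roles were chosen with earlier results of these data known. Values were given for members past the thresholds, the most abundant member of each family, 7 genes chosen by role and, for each list, up to 3 genes per direction. The remaining members were named with their values as well. Positions are from GENCODE 44 (40 of 40 symbols matched). Tables and figures were made with Python 3.11.15, pandas 2.3.3 and matplotlib 3.10.9. Some genes that the rule for lists would name are not reported here.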

Additional observations from a re-analysis of the deposited data

How the results depend on the processing

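METTL16 stayed lower and called under all alternatives, with log2 fold changes from -0.69 to -0.45. The numbers of members called higher (11) and lower (8) at an adjusted p under 0.05 stayed within 1.5 times under all alternatives, with 9 to 13 higher and 6 to 12 lower. With the stricter thresholds, no minimum level gave 5 higher members in place of 3, the added ones being SLC1A1 and SLC1A3. Only 2 were left with a pseudocount of 1 (SLC7A7 at 0.987) and with median-ratio scaling (SLC43A3 at 0.989). A minimum mean of 5 TPM also left 2, because SLC7A7 was then not tested. The single lower member, SLC1A7, went to 0 with a minimum mean of 5 TPM, which left it untested. Median-ratio scaling gave 2 lower members, the added one being SLC7A11 (-1.04). Quantile normalization gave 2 with another added member, SLC38A5 (-1.12), which was under the minimum level as deposited and is higher in sgNS. Leaving out 1 library each gave 0 to 1 lower members, with 0 without sgNS replicate 1; limma then assumes that the remaining library of that group varies like those of the other. With the replicate block, 11 members were higher and 8 lower, and the block changed no call of a member. With 4 libraries, the block leaves very little information on a gene's own spread, and SLC1A4 was given an adjusted p of 4.4e-70 (limma). The kept calls therefore cannot show whether the results hold under pairing. Across genes, libraries with the same number deviated from their groups with a correlation of -0.044. This value over all genes cannot show whether such libraries share a culture or a guide, which the labels do not say. Leaving SLC7A6OS out gave 10 higher and 8 lower members.

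Of 307 combinations of member and alternative with a value, 279 kept direction and call, 9 lost the call with the same sign, 8 gained one with the same sign and 11 changed sign. Under median-ratio scaling, 2 of those that changed sign also gained a call (SLC38A2, SLC43A1) and 1 lost its call (SLC3A2). With median-ratio scaling the sign changed for SLC36A1 (-0.059), SLC38A2 (-0.15), SLC38A9 (-0.096), SLC3A2 (-0.061) and SLC43A1 (-0.16), and with quantile normalization for SLC36A1 (-0.056), SLC38A2 (-0.010), SLC38A9 (-0.094) and SLC43A1 (-0.031). Median-ratio scaling by construction lowers all values by about 0.2. When 1 library was left out, SLC1A5 ran from -0.14 to 0.025 and SLC43A1 from -0.017 to 0.096. The cause of the other differences was not tested. Depth is unknown, so the precision of members near 0 TPM cannot be given.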

Other observations

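Genes that act on transporters at the membrane and enzymes that use glutamine and glutamate were also examined. Of 10 partners and regulators tested, 4 rose and 4 fell at an adjusted p under 0.05 in limma, a share of 80.0% called against 75.7% of all genes. PDZK1, a scaffold that holds carriers at the cell surface, stood at 12.4 and 12.3 TPM in sgNS versus 41.2 and 36.8 TPM upon METTL16 KO (log2 fold change 1.65, adjusted p = 4.0e-09, limma). SGK1, a kinase that raises the surface level of several carriers, went from 63.0 and 63.2 to 172 and 170 TPM, and TXNIP, which lowers glucose uptake, from 60.3 and 62.4 to 122 and 125 TPM. On the log2 scale SGK1 was higher by 1.43, and after median-ratio scaling the values of SGK1 and TXNIP were 1.24 and 0.82. LAPTM4B, which brings CD98 and LAT1 to lysosomes, fell from 343 and 349 to 275 and 270 TPM (log2 fold change -0.35, adjusted p = 2.2e-06, limma). The ubiquitin ligase NEDD4 fell by 0.59 and ARL6IP5, a partner of the glutamate carrier SLC1A1, fell by 0.41 on the log2 scale.

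Of the 12 enzymes of glutamine and glutamate metabolism tested, 6 rose and 3 fell, a share of 75.0% called that is near the 75.7% of all genes, and after median-ratio scaling 2 were higher and 5 lower. PYCR1, an enzyme of the last step of proline synthesis, fell from 128.6 and 124.9 to 85.0 and 79.0 TPM (log2 fold change -0.63, adjusted p = 3.4e-07, limma). ALDH18A1, an earlier enzyme of that route, fell by 0.46, and GOT2 fell by 0.28. GPT2, a mitochondrial alanine aminotransferase, had a log2 fold change of 0.41 and of 0.21 after median-ratio scaling (adjusted p = 0.0086, limma). Of 178 other SLC genes tested, 67 were higher and 64 lower, a total of 73.6% called, against 73.1% of the transporter genes of the 6 families.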
